A study of Mus musculus with 28 samples.

Results

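The miR-25/32/92 family was followed in small RNA libraries of mouse alveolar macrophages (AM). Its members were the 4 rows named mmu-mir-25-3p, mmu-mir-32-5p, mmu-mir-92a-3p and mmu-mir-92b-3p, taken by name because their mature sequences share a seed, and all 4 were listed in each of the 4 deposited tables, among 607 miRNAs listed in any of them. The libraries came from 12-week-old male (M) and female (F) mice of 2 kinds, with the estrous cycle of the females synchronised. Co-ex mice carry the human surfactant protein A genes SP-A1 and SP-A2 (variants 6A2 and 1A0) on a C57BL/6J background without mouse SP-A, and KO mice lack SP-A altogether, so mouse SP-A was absent from all groups. The promoter that drives the human genes is not given in the sources used here. Mice breathed filtered air (FA) or ozone (O3) for 3 h, and AM were recovered by bronchoalveolar lavage after a further 4 h, giving 28 libraries in 8 groups, each with 4 libraries for co-ex and 3 for KO. The labels number the libraries of a group without saying that each is a separate mouse, so the p-values below measure the spread between libraries. The study's methods state groups of 4 animals, whereas each KO group holds 3 libraries. The question put to the family was whether its members moved together or apart after O3, in each genotype and sex.

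A miRNA guides an Argonaute protein to messenger RNAs, and the bases of its seed, close to the 5′ end, choose most of the targets. Members of a family that share a seed are therefore predicted to share many targets, although they can be transcribed from separate genes and differ in level between cell types. In the mouse, mir-25 lies in a cluster with mir-106b and mir-93, mir-92a is made from the mir-17-92 cluster and from its relative on the X chromosome, and mir-32 and mir-92b lie apart from these clusters.

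The mature sequences are shown because the seed, in capitals (bases 2 to 8 from the 5′ end), is the property that joins the members, and the bases after it are what tells their reads apart. They were taken from RefSeq (GRCm38.p6), where all 4 members were matched, and mir-92b-5p, the other arm of the mir-92b hairpin, is added because its reads are compared with those of mir-92b-3p further on.
mir-25-3p: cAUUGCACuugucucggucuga
mir-32-5p: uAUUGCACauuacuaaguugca
mir-92a-3p: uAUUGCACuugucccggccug
mir-92b-3p: uAUUGCACucgucccggccucc
mir-92b-5p: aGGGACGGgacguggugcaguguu

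The seed AUUGCAC was carried by 6 of the 1679 mature mouse miRNA names in the RefSeq table (0.357%). The names beside the members were mir-363-3p and mir-367-3p. mir-363-3p was sought as a cluster partner of mir-92a but was listed in none of the deposited tables, and mir-367-3p was not analysed here. Without gaps and counted from the 5′ end, mir-92a-3p and mir-92b-3p were identical at 19 of 21 positions (90.5%), and differed by U10C and G21C, with the base of mir-92a-3p first. The least alike pair was mir-32-5p and mir-92b-3p, which were identical at 11 of 22 positions. How reads with a mismatch were divided between mir-92a-3p and mir-92b-3p is not given in the sources used here, so a small exchange of reads between these near-identical names cannot be told apart from a difference in level.

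By GENCODE (release vM21, GRCm38), Mir25 (chr5:138165321-138165404, minus strand) overlaps an exon annotated for Mcm7, which encodes a helicase subunit of DNA replication. Mir32 (chr4:56895229-56895298, minus strand) is in an intron of Tmem245. Mir92-1 (chr14:115044427-115044506, plus strand) is in an exon of the host transcript Mir17hg, and Mir92-2 (chrX:52741838-52741928, minus strand) is intergenic, 55 bases from Mir19b-2. Both loci give the same mature mir-92a-3p, so its reads could not be divided between them. Mir92b (chr3:89227116-89227198, minus strand) is intergenic by this annotation and 28 bases from Mtx1.

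The libraries held 41542 to 2082034 reads on miRNAs, with the shallowest among co-ex females. The deposited values are normalised values, the reads of a miRNA over a size factor set for the library. The 4 tables were normalised separately, so values are compared within a table and shares of reads are used when tables are set side by side. Myeloid miRNAs (mir-223-3p, mir-142a-3p and mir-142a-5p) were listed in all 4 tables and none was at 0 throughout a group. The summed value of 11 miRNAs of epithelial cells nevertheless exceeded the myeloid sum in 18 of the 28 libraries. After FA these were 4 of 4 co-ex F, 1 of 4 co-ex M, 0 of 3 KO F and 1 of 3 KO M libraries. After O3 they were 4 of 4, 2 of 4, 3 of 3 and 3 of 3 in the same order. KO M FA replicate 3 stood apart from the other KO M FA libraries, with an epithelial sum of 41495 against 3188 and 3622, and a mesenchymal sum (mir-143-3p, mir-145a-5p, mir-199a-5p, mir-199b-3p and mir-214-3p) of 37643 against 1202 and 1083. Where leaving it out changes a call or moves a value of a member by over 1.5 times, both values are given. Correlations (r) are given only with it included. In libraries of whole samples, fewer cells of a type and less RNA per cell cannot be told apart.

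Of the 4 members, 3 were abundant and 1 was scarce. The 4 members together took a mean of 2.03% ± 0.844 (SD, n = 28) of the miRNA reads of a library, with a lowest of 0.872% and a highest of 4.21%. mir-92a-3p held a mean of 0.946% ± 0.469 (SD, n = 28) of the reads and stood between rank 10 and rank 43 of the miRNAs of a library. mir-92b-3p held 0.803% ± 0.71 and stood between rank 7 and rank 89. mir-25-3p held 0.28% ± 0.156 and was below mir-92a-3p in 28 of 28 libraries. mir-32-5p held 0.00315% ± 0.00436, was the lowest of the 4 in 28 of 28 libraries, and had at least 1 read in 21 of them.

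The order of mir-92a-3p and mir-92b-3p depended on the group. mir-92b-3p had more reads than mir-92a-3p in 11 of 28 libraries, and these were 2 of 4 co-ex F FA, 4 of 4 co-ex F O3, 0 of 4 co-ex M FA, 1 of 4 co-ex M O3, 0 of 3 KO F FA, 3 of 3 KO F O3, 0 of 3 KO M FA and 1 of 3 KO M O3 libraries. By share of all reads, the groups stood in the order co-ex F O3 (1.88% ± 0.578, SD, n = 4), KO F O3 (1.47% ± 0.423, n = 3), co-ex F FA (1.2% ± 0.352, n = 4), KO M O3 (0.734% ± 0.176, n = 3), co-ex M O3 (0.368% ± 0.335, n = 4), co-ex M FA (0.318% ± 0.367, n = 4), KO M FA (0.147% ± 0.162, n = 3) and KO F FA (0.118% ± 0.0649, n = 3) for mir-92b-3p. Neighbours in this order overlapped in every case, although the ends of the order did not. Without KO M FA replicate 3 (0.334%), KO M FA fell from 0.147% to 0.0541% ± 0.0231 (SD, n = 2), below KO F FA. For mir-92a-3p and mir-25-3p all neighbouring groups overlapped as well, with KO M FA the highest group for each (1.63% ± 1.18 and 0.539% ± 0.301, SD, n = 3). That place rested on replicate 3, with 2.99% and 0.887%, and without it KO M FA held 0.946% ± 0.12 and 0.365% ± 0.00828 (SD, n = 2), below KO M O3 (1.15% ± 0.476 and 0.371% ± 0.112, SD, n = 3). The lowest group was co-ex M O3 for mir-92a-3p (0.67% ± 0.137, SD, n = 4) and co-ex F O3 for mir-25-3p (0.135% ± 0.0378, SD, n = 4). For mir-32-5p the groups ran from co-ex F O3 (0.00676% ± 0.00998, SD, n = 4) down to co-ex F FA (0.000214% ± 0.000428, SD, n = 4). The first place rested on co-ex F O3 replicate 4 (0.0215%), without which that group held 0.00183% ± 0.00195 (SD, n = 3) and stood in place 5. By share of reads, co-ex M O3 and co-ex M FA were the only neighbours whose shares did not overlap, although their normalised values did. No test was made across tables on these shares.

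**Figure D1:**
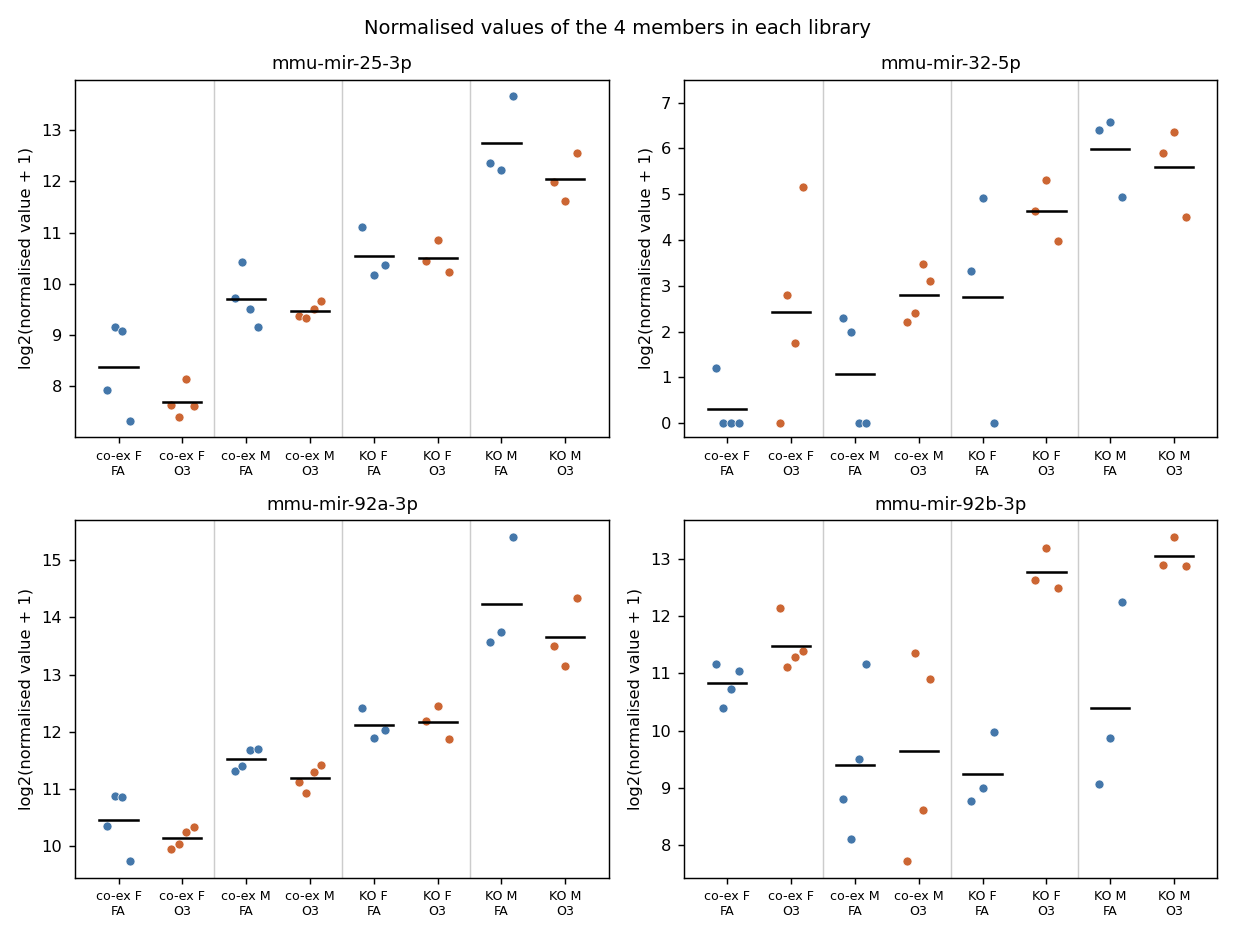
Normalised value of each member in each of the 28 libraries, as log2(value + 1) on the vertical axis, with FA libraries in blue and O3 libraries in orange. Points are libraries, black bars are group means, and heights are comparable only within a table (between grey lines), since each table was normalised on its own. The mmu-mir-92b-3p panel shows the 3 KO F O3 libraries above the 3 KO F FA libraries, while mmu-mir-25-3p and mmu-mir-92a-3p overlap in every table.

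mir-92b-3p, the member from an intergenic locus of its own on chromosome 3, was higher after O3 in KO females. Its normalised values were 434, 507 and 1004 in the 3 KO F FA libraries and 6379, 9355 and 5815 in the 3 KO F O3 libraries. All O3 libraries stood above all FA libraries, and the ratio of the means was 11.1. The change was 3.54 (SE 0.37) on the log2(value + 1) scale, with an adjusted p of 0.00143 by limma, the second smallest p of the 319 miRNAs tested in the table. The threshold was an adjusted p of 0.1, which 42 of the 319 miRNAs passed (13.2%). FA and O3 libraries were apart, in either direction, for 31.3% of them. The call held without each of the 6 libraries in turn, with changes between 3.30 and 3.90.

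In KO males mir-92b-3p was also higher in all 3 O3 libraries, but it did not pass the threshold with all libraries. Its normalised values were 535, 936 and 4886 after FA and 7633, 10786 and 7553 after O3, and the libraries of the groups did not overlap. For scale, groups were apart for 12.7% of the 440 miRNAs tested there. The change was 2.66 (SE 0.79, unadjusted p = 0.0118, adjusted p = 0.332 by limma), in a table where 4 of 440 miRNAs passed (0.909%). The FA library with 4886 was replicate 3, which stands apart by its epithelial and mesenchymal sums. Without it the change was 3.59, with an adjusted p of 7.96e-07 by limma, and the number of miRNAs that passed rose from 4 of 440 to 86 of 479 (18%).

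In co-ex mice of both sexes the FA and O3 libraries of mir-92b-3p overlapped. Groups were apart for 4.06% of the miRNAs tested in co-ex females and for 2.88% in co-ex males. In co-ex females it was already abundant after FA, with normalised values of 2301, 1338, 1687 and 2119, and it stood at 4556, 2207, 2507 and 2678 after O3. The highest co-ex F O3 library was replicate 1, the shallowest of the series. The change was 0.65 (SE 0.39, adjusted p = 0.778 by limma), where 1 of 271 miRNAs passed (0.369%). In co-ex males the values were 443, 273, 727 and 2292 after FA and 208, 2618, 388 and 1908 after O3. Each group thus held low and high libraries, and the change was 0.25 (SE 0.85, adjusted p = 0.944 by limma). None of the 312 miRNAs tested in co-ex males passed the threshold (0%), and 11 had an unadjusted p under 0.05 by limma; edgeR's quasi-likelihood test and DESeq2 on the recovered reads also called 0. Without co-ex M O3 replicate 2 the change was -0.32, without O3 replicate 4 it was -0.17, and without FA replicate 2 it was -0.18, so its direction in co-ex males rested on single libraries.

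The response of mir-92b-3p differed between co-ex and KO females. The change in co-ex females minus that in KO females was -2.88 (SE 0.52, 95% interval -3.99 to -1.78), with an adjusted p of 0.00231 by limma. Of the 241 miRNAs tested for this difference 21 passed (8.71%), 20 of them with a lower change in co-ex females. The same difference in males was -2.41 (SE 1.34, 95% interval -5.28 to 0.46, adjusted p = 0.949 by limma), where 0 of 305 miRNAs passed (0%), 6 had an unadjusted p under 0.05, and edgeR and DESeq2 each called 0. Without KO M FA replicate 3 it was -3.34 (adjusted p = 0.461 by limma). Between the sexes, males minus females, the difference was -0.41 (SE 1.00) in co-ex and -0.88 (SE 0.94) in KO, and the latter was 0.05 without KO M FA replicate 3. Neither passed by limma (adjusted p = 0.981 and 0.890), and no miRNA of 249 or of 309 did so (0% each; 8 and 17 had an unadjusted p under 0.05, edgeR called 1 and 0, and DESeq2 called 1 and 2). These 4 differences share tables with each other. Each table holds a single genotype and sex, so a difference between genotypes cannot be told apart from other differences between the sets of libraries.

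Averaged over the 4 tables with equal weight, mir-92b-3p rose by 1.78 (SE 0.37, 95% interval 1.00 to 2.55), with an adjusted p of 0.00203 by limma. Of the 230 miRNAs that could be averaged in this way, 46 passed (20%), 34 of them higher after O3. This average joins the called change of KO females with smaller or less certain ones elsewhere. Without each library in turn the average stayed between 1.61 and 2.01 and passed the threshold.

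mir-92a-3p, the member produced by the mir-17-92 cluster, was the most abundant member in most FA libraries and did not pass the threshold in any table. In KO females its normalised values were 5440, 3784 and 4187 after FA and 4660, 5599 and 3747 after O3. These ranges nearly coincide, and the change was 0.06 (SE 0.25, adjusted p = 0.935 by limma, 95% interval -0.52 to 0.64). In KO males the values were 12226, 13686 and 43738 after FA and 11518, 9056 and 20686 after O3, with a change of -0.59 (SE 0.58, adjusted p = 0.952 by limma). The highest FA value again belongs to KO M FA replicate 3, and without that library the change was -0.0015. In co-ex females mir-92a-3p stood at 1294, 1862, 1847 and 844 after FA and at 977, 1040, 1215 and 1290 after O3 (change -0.31, SE 0.38, adjusted p = 0.891 by limma). In co-ex males it stood at 2546, 2688, 3256 and 3299 after FA and at 2207, 1945, 2504 and 2724 after O3 (change -0.33, SE 0.32, adjusted p = 0.944 by limma). FA and O3 libraries overlapped in all 4 tables, and the averaged change was -0.29 (SE 0.19, 95% interval -0.68 to 0.10, adjusted p = 0.365 by limma).

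mir-25-3p, transcribed with mir-106b and mir-93, did not pass the threshold in any table either. In KO females it stood at 2200, 1158 and 1323 after FA and at 1390, 1848 and 1209 after O3, with a change of -0.04 (SE 0.33, 95% interval -0.79 to 0.71). In KO males it stood at 5269, 4775 and 12994 after FA and at 4087, 3134 and 6021 after O3 (change -0.69, SE 0.49). The highest value was once more that of KO M FA replicate 3, and without it the change was -0.24. In co-ex females the values were 244, 567, 540 and 160 after FA and 197, 168, 280 and 197 after O3 (change -0.68, SE 0.47). In co-ex males they were 843, 1385, 727 and 574 after FA and 666, 642, 732 and 810 after O3 (change -0.24, SE 0.38). The libraries overlapped in all 4 tables and no change passed by limma (adjusted p = 0.841 in co-ex females, 0.944 in co-ex males, 0.972 in KO females and 0.918 in KO males). The averaged change was -0.41 (SE 0.22, 95% interval -0.86 to 0.04, adjusted p = 0.238 by limma), and it passed only with DESeq2 on the recovered reads among the alternative settings (-0.56, adjusted p = 0.0406).

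mir-32-5p, an intronic miRNA, was measured with few reads. In co-ex females it had 1, 0, 0 and 0 reads after FA and 0, 7, 4 and 56 reads after O3, and in co-ex males 5, 8, 0 and 0 reads after FA and 4, 5, 14 and 5 reads after O3. Where no read was found, the count allows up to 3 reads, which is a normalised value of 1.04 to 12.1 in the co-ex F libraries without a read and of 4.38 and 8.17 in the co-ex M ones. It failed the filter for low values (5 or more in 4 libraries of a co-ex table and in 3 of a KO table) in both co-ex tables. Without the filter its changes were 2.13 (SE 1.05) in co-ex females and 1.72 (SE 0.90) in co-ex males, with adjusted p of 0.744 and 0.953 by limma. In KO females it had 16, 40 and 0 reads after FA and 28, 9 and 19 after O3 (change of the normalised value 1.89, SE 1.41, adjusted p = 0.490 by limma). In KO males it had 82, 128 and 20 reads after FA and 104, 65 and 20 after O3 (change -0.39, SE 0.74, adjusted p = 0.967 by limma; -0.90 and 0.356 without FA replicate 3). No change of mir-32-5p within a table thus passed the threshold, and how far depth limited this was not tested. The average of the 4 tables, also without the filter, was 1.34 (SE 0.53, adjusted p = 0.103 by limma).

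**Figure D2:**
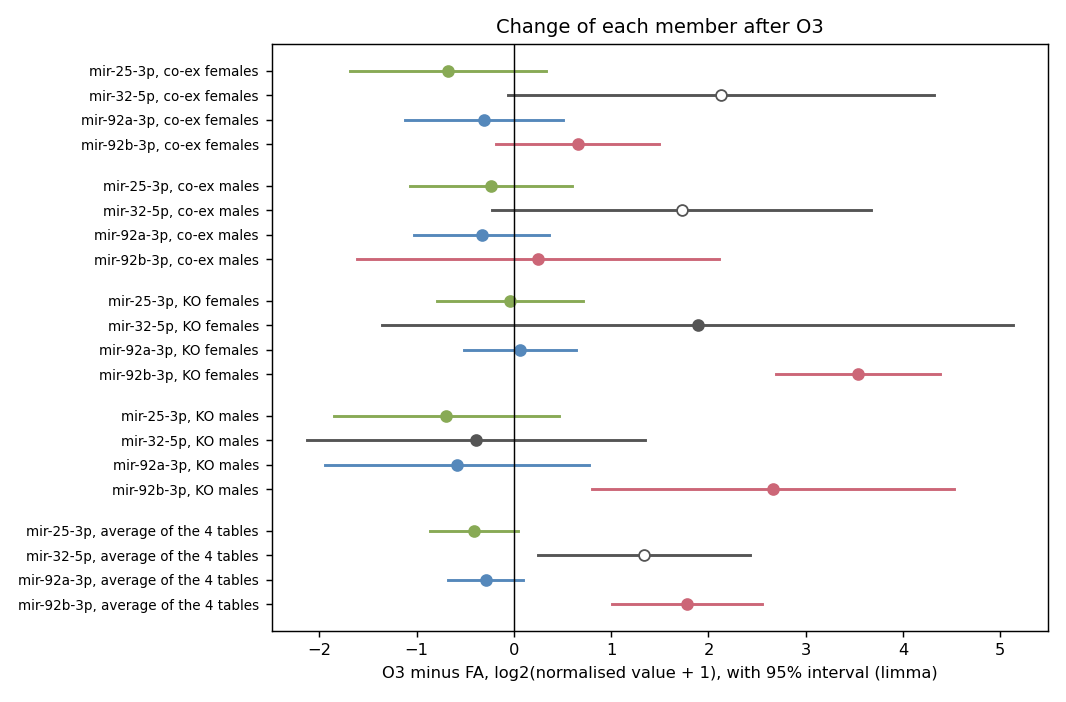
Change of each member after O3 within each table and averaged over the tables, as O3 minus FA of log2(normalised value + 1) on the horizontal axis. Points are limma estimates, lines their 95% intervals, and open points mark mir-32-5p where it failed the filter for low values and was fitted without it. Among the 4 tables, the interval of mir-92b-3p lies above 0 in KO females (2.69 to 4.38) and KO males (0.80 to 4.53), and all intervals of mir-25-3p and mir-92a-3p include 0.

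Because the members of a library share its depth and size factor, their ratios compare them with each other directly, except where a member has no read. The log2 ratio of mir-92b-3p to mir-92a-3p, O3 minus FA and averaged over the 4 tables, rose by 2.07, with a two-sided exact permutation p of 0.000572 over the 1960000 relabellings within tables and an adjusted p of 0.00172 over the 3 ratios. The ratio of mir-25-3p to mir-92a-3p changed by -0.12 (exact permutation p = 0.313, adjusted p = 0.313). The ratio of mir-32-5p to mir-92a-3p rose by 1.63 (exact permutation p = 0.0101, adjusted p = 0.0152), on the few reads given above. Its size depended on how zeros were handled, and it was 2.72 with a pseudocount of 0.1 in place of 1 (adjusted p = 0.00973 by exact permutation). At least 1 read of mir-32-5p was found in 1 of 4 co-ex F, 2 of 4 co-ex M, 2 of 3 KO F and 3 of 3 KO M libraries after FA. After O3 it was found in 3 of 4, 4 of 4, 3 of 3 and 3 of 3. Leaving out each library in turn kept the mir-92b-3p ratio between 1.90 and 2.22 and the mir-32-5p ratio between 1.30 and 1.93, both with adjusted p under the threshold. Where no read was found the mir-32-5p ratio rests on the pseudocount, which leaving out single libraries does not address.

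Within single tables, the ratio of mir-92b-3p to mir-92a-3p went from -2.87 ± 0.793 to 0.61 ± 0.145 in KO females (mean of the log2 ratio ± SD, n = 3 in each group) and from -3.85 ± 0.675 to -0.60 ± 0.853 in KO males (n = 3). In both tables the FA and O3 libraries were apart, including KO M FA replicate 3. In co-ex females it went from 0.39 ± 0.836 to 1.35 ± 0.58 (n = 4) and in co-ex males from -2.13 ± 1.17 to -1.54 ± 1.8 (n = 4), and the libraries overlapped. The two-sided exact permutation p was 0.1 in each KO table, which is the smallest that 3 libraries against 3 can give, and 0.2 and 0.686 in co-ex females and males. For mir-32-5p the exact permutation p in co-ex males was 0.0286, the smallest that 4 against 4 can give, and it was 0.3 after adjustment over the 12 single-table ratios. None of the 12 passed after that adjustment. Co-ex M FA replicates 3 and 4 held no read of mir-32-5p and were the shallowest co-ex M libraries (126398 and 181805 reads). The mir-32-5p ratios of those libraries rest on the pseudocount, so the separation in co-ex males is not resolved at this depth.

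The share of each member in the reads of the family shows the same values as a composition. In KO females mir-92b-3p supplied 5.37%, 9.25% and 15.4% of the family reads after FA and 51.2%, 55.5% and 53.9% after O3. In KO males it supplied 2.96%, 4.8% and 7.93% after FA and 32.8%, 46.8% and 22% after O3. KO M FA replicate 3, at 7.93%, had the highest share of its group but stood below all 3 O3 libraries. In co-ex females mir-92b-3p supplied 59.9%, 35.5%, 41.4% and 67.9% after FA and 79.5%, 64.5%, 62.6% and 63.8% after O3. In co-ex males it supplied 11.6%, 6.27%, 15.4% and 37.2% after FA and 6.73%, 50.3%, 10.7% and 35% after O3. The reads of the whole family, as a share of all miRNA reads, went from 1.2% ± 0.258 to 2.73% ± 0.696 (SD, n = 3) in KO females. In the other tables the FA and O3 ranges of this share overlapped.

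**Figure D3:**
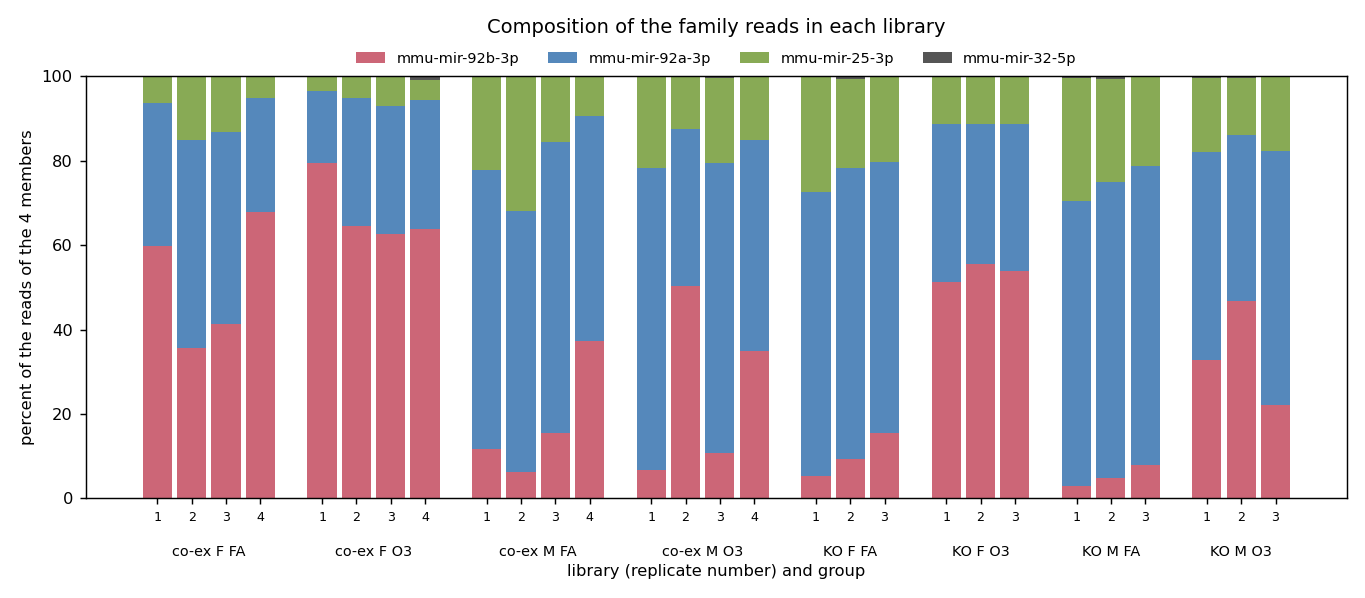
Percent of the reads of the 4 members that each member supplied (vertical axis, stacked to 100) in each library (bars, by replicate number and group). mmu-mir-92b-3p supplied 51.2% to 55.5% in the KO F O3 libraries against 5.37% to 15.4% in KO F FA, and mmu-mir-32-5p is barely visible in most bars.

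The other arms of the hairpins had few reads, and no other arm passed the threshold in any table. mir-92b-5p was the only one listed in all 4 tables, with 0 to 55 reads in a library. Its changes were 0.90 (SE 1.19) in co-ex females, -0.23 (SE 1.03) in co-ex males, 0.97 (SE 1.16) in KO females and 1.70 (SE 1.68) in KO males. In KO males without FA replicate 3 the change of mir-92b-5p was 2.85 (adjusted p = 0.241 by limma). In KO females, where mir-92b-3p rose by 3.54, mir-92b-5p had a mean normalised value of 26.0 ± 20.3 after FA and 35.4 ± 12.1 after O3 (SD, n = 3). The log2 ratio of mir-92b-3p to mir-92b-5p, a comparison chosen after these values were seen, was 0.94 higher after O3 over the 4 tables (exact permutation p = 0.138). Within tables it was 2.56 higher in KO females, where the exact permutation p of 0.1 is the smallest possible, 0.96 in KO males (exact permutation p = 0.6), 0.48 in co-ex males (0.371) and -0.25 in co-ex females (0.857). mir-25-5p had a change of -3.15 (SE 1.43, adjusted p = 0.208 by limma) in KO females, from 26.5 to 174 after FA to 0 to 23.8 after O3.

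None of the other miRNAs of the mir-25 and mir-92a clusters passed the threshold in any table, nor in KO males without FA replicate 3. Of the 16 names fixed for the 3 clusters, 6 were tested in co-ex females, 9 in co-ex males, 9 in KO females and 11 in KO males. Their median changes were 0.47, 0.21, -0.49 and -0.53 in that order (-0.25 in KO males without FA replicate 3), beside medians over all tested miRNAs of -0.16, 0.18, 0.06 and -0.04. mir-93-5p, from the transcript that also holds mir-25, was the most abundant of them in KO males, with a mean of 5058 ± 194 after FA and 4219 ± 844 after O3 (SD, n = 3, change -0.28, SE 0.31). In KO females it changed by -0.55 (SE 0.25, adjusted p = 0.206 by limma), with all O3 libraries (1058 to 1085) below all FA libraries (1437 to 1843). FA and O3 libraries were apart, in either direction, for 31.3% of the 319 miRNAs tested there. mir-106b-3p in co-ex females had a change of -2.49 (SE 0.88, adjusted p = 0.556 by limma), from 57.8 to 290 after FA to 2.58 to 84.5 after O3. In the mir-17-92 cluster, mir-18a-3p (-3.26, SE 1.22, adjusted p = 0.144) and mir-19b-3p (3.02, SE 1.19, adjusted p = 0.153) had the largest changes in KO females by limma, in opposite directions and on at most 32 and 18 reads in a library. Of the 4 names from the X-linked relative, mir-106a-5p alone was listed, in KO males, and it failed the filter there.

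**Figure D4:**
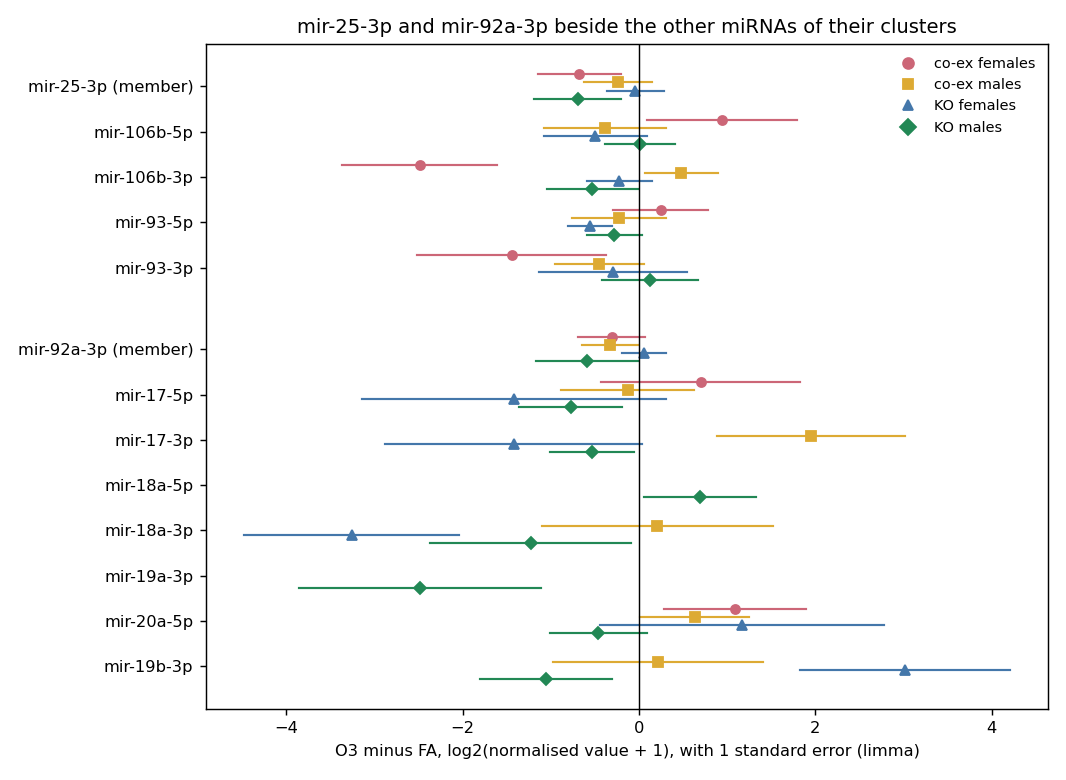
Change after O3 of mir-25-3p and mir-92a-3p (marked as members) and of the other tested miRNAs of the mir-25 and mir-17-92 clusters, as O3 minus FA of log2(normalised value + 1) on the horizontal axis, with 1 SE from limma. Symbols and colours are the 4 tables, and the members lie between -0.69 and 0.06.

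mir-25-3p and mir-92a-3p varied together across the 28 libraries. On log2(value + 1) minus the mean of its table, they had a Pearson r of 0.81, against -0.24 to 0.04 for the other pairs of members, and each was the miRNA most like the other among 229 compared. The next most like mir-25-3p were mir-1198-5p (0.70) and mir-140-3p (0.63), and the next most like mir-92a-3p were mir-150-5p (0.59), a miRNA of lymphocytes, and mir-674-5p (0.52). mir-25-3p had an r of 0.56 with mir-93-5p and 0.01 with mir-106b-5p of its own cluster. mir-92a-3p had an r of 0.27 with mir-17-5p and 0.13 with mir-20a-5p. mir-92b-3p had an r of 0.03 with mir-92a-3p, -0.22 with mir-25-3p and 0.04 with mir-32-5p. These are descriptions over libraries that hold both exposures, and the points of a library share its depth and size factor. KO M FA replicate 3 was the highest of its group in mir-25-3p, mir-92a-3p and mir-150-5p (8426 against 163 and 137 for mir-150-5p). How far each r rests on that library is not given here.

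The miRNAs most like mir-92b-3p were mir-34b-3p (r = 0.95), mir-34c-5p (0.92) and mir-375-3p (0.90). mir-34c-5p and mir-375-3p are on the list of epithelial miRNAs, the former known from ciliated cells and the latter from secretory and neuroendocrine cells. mir-34b-3p is made from the same transcript as mir-34c. Their changes in KO females were 4.25 (SE 0.61, adjusted p = 0.00523) for mir-34b-3p, 4.62 (SE 0.80, adjusted p = 0.00816) for mir-34c-5p and 4.17 (SE 0.65, adjusted p = 0.00523) for mir-375-3p by limma. In KO males they were 3.65 (SE 0.64, adjusted p = 0.0756), 3.64 (SE 1.05, adjusted p = 0.332) and 2.08 (SE 1.14, adjusted p = 0.766) in the same order by limma. Without KO M FA replicate 3 the changes of mir-34b-3p, mir-34c-5p and mir-375-3p were 4.31, 4.94 and 3.51, and all passed (adjusted p = 3.45e-07, 8.01e-08 and 1.22e-06 by limma). In that fit 86 of 479 miRNAs passed (18%). mir-34c-5p and mir-375-3p are part of the epithelial sum by which the left-out library stands apart. The miRNAs most like mir-32-5p were mir-101a-3p (0.66), mir-466f-3p (0.62) and mir-340-5p (0.61), on values that include zeros.

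Markers of epithelium moved beside mir-92b-3p. The epithelial list (mir-200a-3p, mir-200b-3p, mir-200c-3p, mir-141-3p, mir-429-3p, mir-203-3p, mir-205-5p, mir-375-3p, mir-34b-5p, mir-34c-5p and mir-449a-5p) was listed in full in all tables. In KO females all 10 tested miRNAs of the list had a change above 0, from 2.40 to 5.15. The median was 3.59, beside 0.06 over all miRNAs. Of the 10, 8 passed the threshold, which 42 of 319 miRNAs passed there (13.2%). The summed normalised value of the list ranged from 1003 to 2406 after FA and from 10611 to 17560 after O3 in KO females, and mir-34b-5p was at 0 in the 3 FA libraries. In KO males the sum was 3188, 3622 and 41495 after FA and 25662 to 32334 after O3, and 0 of 11 passed (median change 1.79). Without KO M FA replicate 3, 10 of the 11 epithelial miRNAs passed with a higher value after O3 (median change 2.89, beside -0.05 over all miRNAs). In that fit 86 of 479 miRNAs passed (18%). KO M FA replicate 3 stands apart by its epithelial sum, so this count is not independent of leaving it out. In co-ex females the epithelial sum ranged from 2127 to 4639 after FA and from 4355 to 8067 after O3, and in co-ex males from 1828 to 7903 and from 1478 to 14580, with none of 11 and of 9 passing. The co-ex M libraries with the highest sums, FA replicate 4 (7903) and O3 replicate 2 (14580), also held the highest mir-92b-3p of their groups (2292 and 2618). Over the 28 libraries mir-92b-3p had an r of 0.88 with the epithelial sum and -0.51 with the myeloid sum, while mir-92a-3p and mir-25-3p had 0.11 and -0.06 with the epithelial sum. These libraries hold both exposures. The epithelial sum includes mir-34c-5p and mir-375-3p, named above among the miRNAs most like mir-92b-3p, so its r is not independent of theirs. The part of epithelial RNA in the values of mir-92b-3p was not tested.

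No miRNA of the other marker lists passed the threshold in KO females. The myeloid sum in KO females ranged from 4245 to 6327 after FA and from 3207 to 3899 after O3, with 0 of 3 miRNAs passing. The mesenchymal sum there ranged from 85 to 515 after FA and from 496 to 2373 after O3 (0 of 4 passing), and the endothelial sum (mir-126a-3p and mir-126a-5p) from 4.89 to 9.52 and from 24.6 to 330.4 (0 of 2). The red cell sum ranged from 3183 to 18370 and from 2138 to 11509 (0 of 3), and the lymphocyte miRNA mir-150-5p from 66.6 to 113 and from 4.31 to 144. Although none passed, the 4 mesenchymal and 2 endothelial miRNAs tested in KO females all had a change above 0 (medians 2.17 and 3.25). The 3 myeloid and 3 red cell miRNAs tested there all had a change below 0 (medians -0.49 and -0.43), and mir-150-5p changed by -0.83. In KO M FA replicate 3, where mir-92a-3p and mir-25-3p were highest, mir-150-5p stood at 8426 against 163 and 137 in the other FA libraries and the endothelial sum at 10514 against 15.2 and 14.9. Without that library 3 of 5 mesenchymal miRNAs and 1 of 1 tested endothelial miRNA passed with a higher value after O3 in KO males. In that fit 86 of 479 miRNAs passed (18%). KO M FA replicate 3 stands apart by these same sums, so the counts are not independent of leaving it out. In co-ex females the changes of the 3 tested red cell miRNAs after O3 ran from -3.19 to -2.08. Of these 1 passed the threshold, and it was the only 1 of 271 miRNAs (0.369%) to pass there. The red cell sum in co-ex females was 2167 to 22432 after FA and 438 to 663 after O3. With KO M FA replicate 3 included, the r of mir-92a-3p and of mir-25-3p with the red cell sum was 0.39 and 0.46, and with mir-150-5p 0.59 and 0.51. The r of mir-92b-3p was 0.46 with the endothelial sum, 0.45 with the mesenchymal sum, -0.19 with the red cell sum and -0.135 with mir-150-5p. The part of these cell types in the members' values was not tested.

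**Figure D5:**
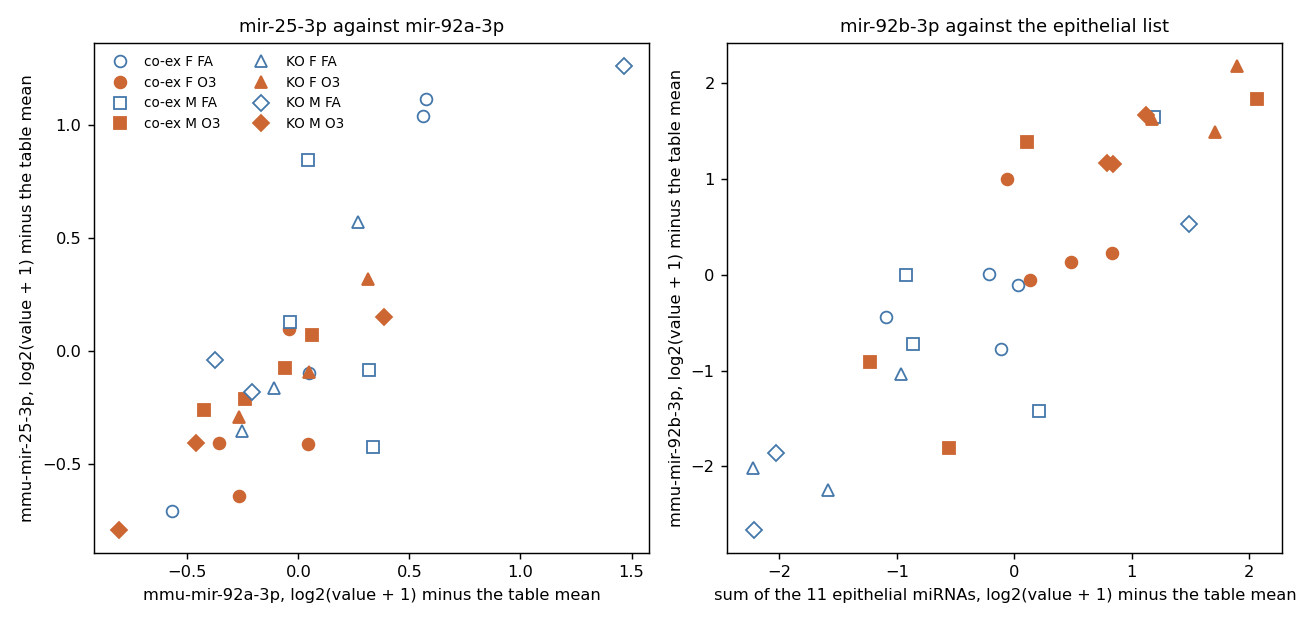
Left, mmu-mir-25-3p against mmu-mir-92a-3p, and right, mmu-mir-92b-3p against the summed value of the 11 epithelial miRNAs, each as log2(value + 1) minus the mean of its table. Each point is 1 of the 28 libraries, open for FA and filled for O3, with a symbol for each table. The r is 0.81 on the left and 0.88 on the right, and the KO M FA point at the upper right of both panels is replicate 3.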

How the data were processed

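Small RNA of AM was sequenced with a ligation-based kit (NEXTflex Small RNA v3) from 1 to 2 ng of total RNA. Per the study's methods, the authors filtered reads with CASAVA and the FASTX-Toolkit, trimmed adapters, and aligned and counted miRNAs with Chimira; the genome build and miRNA release are not given in the sources used here. The deposited library columns hold a normalised signal, the reads of each miRNA divided by a size factor, in 4 separately normalised tables. In all 28 libraries 100% of values were whole multiples of 1 step (tolerance 0.1 read), so counts were recovered. The deposited tables also hold the authors' log2 fold changes, p-values, q-values and ranks (a score), which were not used. Libraries were grouped by their titles.

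O3 was compared with FA within each table by limma (3.58.1, R 4.3.3) on log2(value + 1) with the prior variance following the mean. A miRNA entered where 4 co-ex or 3 KO libraries of a table reached a value of 5; p-values were adjusted by Benjamini-Hochberg and called under 0.1. This scale understates changes of low miRNAs. Differences between tables were tested as differences of the changes within them. Ratios used exact permutation within tables. Alternatives were total-count scaling, no filter, a pseudocount of 0.1, edgeR (4.0.16) and DESeq2 (1.42.0) on recovered reads, a replicate block, and each library left out. The fits were tested on simulated data. Replicate pairs differed by at least 22.0 times the counting variance in all 36 pairs, so none was counted once. Libraries held a median of 490152 reads; intervals and floors from reads cover counting error only. The members, gene lists and markers were chosen with earlier results of these data known. Named miRNAs were the members, their other arms, cluster partners, marker lists and the 3 miRNAs with the highest r for each member. The fits of mir-32-5p in co-ex mice and in the average were made without the filter.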

Additional observations from a re-analysis of the deposited data

Results flagged for a closer look

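The change of mir-92b-3p after O3 differed between the co-ex and KO libraries of females: co-ex minus KO was -2.88 on the log2 scale, by limma's test of the difference (adjusted p = 0.00231). Genotype cannot be told apart here from the set of libraries.

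In groups of 4 co-ex libraries, 4 of the 32 sets of values examined held a library far from the rest of its group by Dixon's criterion at 95%. Chance gives this in about 1 in 20 independent sets, but these sets overlap, so their number cannot be judged against that rate. The sets of mir-32-5p rest on the same read, and the family shares of mir-92a-3p and mir-92b-3p are parts of the same total. Of the co-ex F FA libraries, replicate 1 alone held a read of mir-32-5p, with a normalised value of 1.31 and 0.0342% of the family reads, which is a single read. Of the co-ex F O3 libraries, replicate 1 had the lowest share of mir-92a-3p (17.1% of the family reads) and the highest of mir-92b-3p (79.5%), and it is also the library with the fewest reads of the series.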

How the results depend on the processing

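The results were recomputed under total-count scaling, no filter, a pseudocount of 0.1, edgeR, DESeq2, a replicate block and with each library left out. The rise of mir-92b-3p in KO females, its difference between co-ex and KO females and its average over the tables kept their direction and call under all of these, with values of 3.45 to 3.73, -3.08 to -2.54 and 1.51 to 1.86 over the settings that keep all libraries, and 3.30 to 3.90, -3.25 to -2.64 and 1.61 to 2.01 with libraries left out. The cause of the following changes was not tested.

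In KO males the number of miRNAs called was 2 with edgeR, 15 with DESeq2 and 1 with the replicate block, and 0 (without O3 replicate 3) to 86 (without FA replicate 3) with libraries left out; the other four left-out fits gave 1 or 2. The change of mir-92b-3p there ran from 2.00 to 3.59 and was called without FA replicate 3 alone. For co-ex females minus KO females 32 miRNAs were called with total-count scaling, 35 with DESeq2 and 9 to 31 with libraries left out (10 without co-ex F FA replicate 1, 9 without co-ex F FA replicate 4 and 12 without KO F O3 replicate 2). For co-ex males minus females edgeR and DESeq2 each called 1, and 0 to 1 were called with libraries left out (1 without co-ex M O3 replicate 4); for KO males minus females DESeq2 called 2. With libraries left out, 25 (without O3 replicate 3) to 52 were called in KO females and 0 (without O3 replicate 2 or 4) to 1 in co-ex females; the settings that keep all libraries called 36 to 62 in KO females.

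Small changes turned direction without any call. With total-count scaling mir-25-3p in KO females was at 0.15 and mir-92a-3p in co-ex males minus KO males at -0.090, and with edgeR mir-92a-3p in co-ex males minus females was at 0.0040. With libraries left out, mir-25-3p ran from -0.42 to 0.0065 in co-ex males and from -0.23 to 0.24 in KO females, mir-92a-3p from -0.080 to 0.21 in KO females, mir-92b-3p from -0.32 to 0.89 in co-ex males, and mir-32-5p from -0.90 to 0.16 in KO males. The differences ran from -0.16 to 0.22 (mir-92a-3p) and -0.98 to 0.24 (mir-92b-3p) for co-ex males minus females, from -1.54 to 0.053 (mir-92b-3p) for KO males minus females, and from -0.33 to 0.59 (mir-92a-3p) for co-ex males minus KO males. The average of mir-25-3p was called with DESeq2 (-0.56), and its ratio to mir-92a-3p ran from -0.18 to -0.049, called without co-ex M FA replicate 4 alone (adjusted p = 0.0979 by exact permutation).

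Replicate numbers are shared by the groups, but same-numbered FA and O3 libraries of a table did not visibly deviate together (r of their deviations from -0.28 to 0.23). Differently numbered libraries had an r from -0.41 to 0.55. No pairing by number was seen, though so few libraries cannot exclude a pairing. The replicate block moved no call of a member; with it mir-92b-3p changed by 3.54 in KO females (adjusted p = 0.0149 by limma) and 2.66 in KO males (adjusted p = 0.421). The depth of 41542 to 2082034 reads limits mir-32-5p and the other arms.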
